A study of Mus musculus with 23 samples.

Results

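The activity-regulated immediate early genes examined were Arc, Junb, Fos, Fosb, Egr1, Egr2, Egr4, Npas4, Nr4a1 and Dusp1, taken by their symbol in the array's annotation. These 10 genes, of 16593 with a probe, had 11 of the 25697 probes. They were picked for their levels in the adult brains, so the adult genotype difference is given as a description, and nothing is supported with its p-values. The arrays held total RNA of C57BL/6J mice, 1 array per mouse, and the labels of the adults name the allele as Meis1, a homeodomain transcription factor gene. The labels do not say how the allele was made. The adult groups were whole brains of 23-week-old males, 4 heterozygous and 3 wild type for that allele. The embryonic groups were forebrains of both sexes at E12.5, a mid-gestation embryonic day, from 5 homozygotes, 6 heterozygotes and 5 wild types. No treatment or stimulation is named for any mouse.

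Immediate early genes are transcribed within minutes of a stimulus without new protein synthesis. In neurons, calcium entry during firing activates kinases that act on the transcription factors CREB and SRF, which are already bound at the genes' promoters. Most of the products are transcription factors that switch on later genes, and some act directly at the synapse or shut the signal down. The labels do not say how the mice were handled before death.

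Meis1, the gene of the allele, had normalised signals (log2) of 7.79, 7.72, 7.66 and 7.05 in adult heterozygotes, against 8.49, 8.16 and 7.86 in adult wild types. At E12.5 it averaged 8.80 ± 0.23 in homozygotes (SD, n = 5), 9.62 ± 0.14 in heterozygotes (n = 6) and 9.98 ± 0.17 in wild types (n = 5). The probe could not be placed relative to the change in the gene. Median signal per array was 119 to 143 in the adult set and 164 to 210 in the E12.5 set, and 53.1% to 55.1% and 52.3% to 54.8% of probes were detected. The glutamate transporter gene Slc17a7, the forebrain interneuron genes Dlx1 and Dlx2 and the neuroblast gene Dcx were detected on 7 of 7 adult and 16 of 16 E12.5 arrays. The myelin gene Mbp was detected on 7 of 7 adult and 9 of 16 E12.5 arrays and the astrocyte gene Gfap on 7 of 7 and 0 of 16, so that of these 6 genes only Gfap separated the stages by detection alone. In tissue RNA of this kind, fewer cells of a type and less RNA per cell cannot be told apart.

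The calcium and cAMP response element is bound by CREB, and its core is TGACG. SRF binds the CArG box. Promoter windows from 250 bases before to 50 bases after the start (RefSeq, GRCm38.p6) were at hand for 8 of the 10 genes, all but Arc and Egr1. The core TGACG, read on either strand, was in all 8 of them and in at least 1 window of 23% of 27025 genes. The full palindrome TGACGTCA was in the window of Dusp1, and in those of 2.03% of all genes. The CArG box was in the windows of Egr2, and in those of 1.81% of all genes. Below are 4 of the windows, for genes whose adult heterozygote values all lay above the wild type values. Capitals mark TGACG, or CGTCA where the core reads on the other strand, and the CArG box. For Egr2, 3 of its 5 windows in the table hold the same matches, and the first of these is shown.
Junb, chr8:84978699-84978998, minus strand: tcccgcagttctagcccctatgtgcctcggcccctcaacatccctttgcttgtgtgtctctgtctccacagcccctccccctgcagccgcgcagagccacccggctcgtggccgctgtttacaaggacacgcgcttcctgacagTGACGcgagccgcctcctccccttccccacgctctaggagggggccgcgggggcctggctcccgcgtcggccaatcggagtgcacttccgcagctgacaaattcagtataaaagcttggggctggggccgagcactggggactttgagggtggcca
Npas4, chr19:4989922-4990221, minus strand: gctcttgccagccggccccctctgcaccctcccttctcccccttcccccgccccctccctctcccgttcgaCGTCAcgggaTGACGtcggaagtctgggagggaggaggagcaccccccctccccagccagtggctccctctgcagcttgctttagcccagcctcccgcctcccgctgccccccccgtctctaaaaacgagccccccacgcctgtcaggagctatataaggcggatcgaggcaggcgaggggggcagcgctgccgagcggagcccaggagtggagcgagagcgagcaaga
Egr2, chr10:67537619-67537918, plus strand: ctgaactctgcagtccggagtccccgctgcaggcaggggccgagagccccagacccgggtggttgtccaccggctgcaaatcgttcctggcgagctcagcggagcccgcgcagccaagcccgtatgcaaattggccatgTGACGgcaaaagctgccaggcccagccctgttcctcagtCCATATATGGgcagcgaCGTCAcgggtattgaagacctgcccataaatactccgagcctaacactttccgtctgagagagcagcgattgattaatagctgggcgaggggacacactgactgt
Fos, chr12:85473640-85473939, plus strand: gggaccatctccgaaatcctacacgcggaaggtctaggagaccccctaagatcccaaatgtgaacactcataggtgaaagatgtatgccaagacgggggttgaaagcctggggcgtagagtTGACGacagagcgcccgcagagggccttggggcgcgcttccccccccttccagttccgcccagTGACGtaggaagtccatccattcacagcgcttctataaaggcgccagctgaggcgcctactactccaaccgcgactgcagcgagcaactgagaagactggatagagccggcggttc
In these windows the core lay at -106 to -102 from the start of Junb and at -66 to -62 and -129 to -125 from the start of Fos. Npas4 carried it on opposite strands at -179 to -175 and -169 to -165. In Egr2 the CArG box at -72 to -63 sat between cores at -111 to -107 and -55 to -51. A match to these letters is not evidence of binding.

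In adult brains 9 of the 10 genes were detected, each on 7 of 7 arrays, and all 9 averaged higher in heterozygotes than in wild types, as did 51.3% of all probes. The differences ran from 0.09 for Egr1 to 0.85 for Arc on the log2 scale, with a median of 0.48, against a median of 0.0053 over all 14266 probes tested. For 7 of the 9 genes every heterozygote lay above every wild type, which held for 5.43% of all probes. 0 of the 14266 probes passed an adjusted p of 0.05 in limma (0% of probes), while 1518 probes (10.6%) had an unadjusted p under 0.05. The genes were picked on this contrast, so their counts are read no further. Where arrays were scaled to equal medians in place of quantile normalization, 8 of 9 differences were positive (-0.02 to 0.68), Junb and Fosb were the 2 of 9 genes without overlap, against 1.36% of all probes, and the median of all probes was -0.11. The differences of Fos, Fosb, Dusp1 and Egr4 were 0.32, 0.27, 0.16 and 0.14 under that scaling. Without background correction those of Npas4, Egr2 and Fosb were 0.31, 0.30 and 0.27. All of these were over 1.5 times smaller than the differences given below for each gene.

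**Figure D1:**
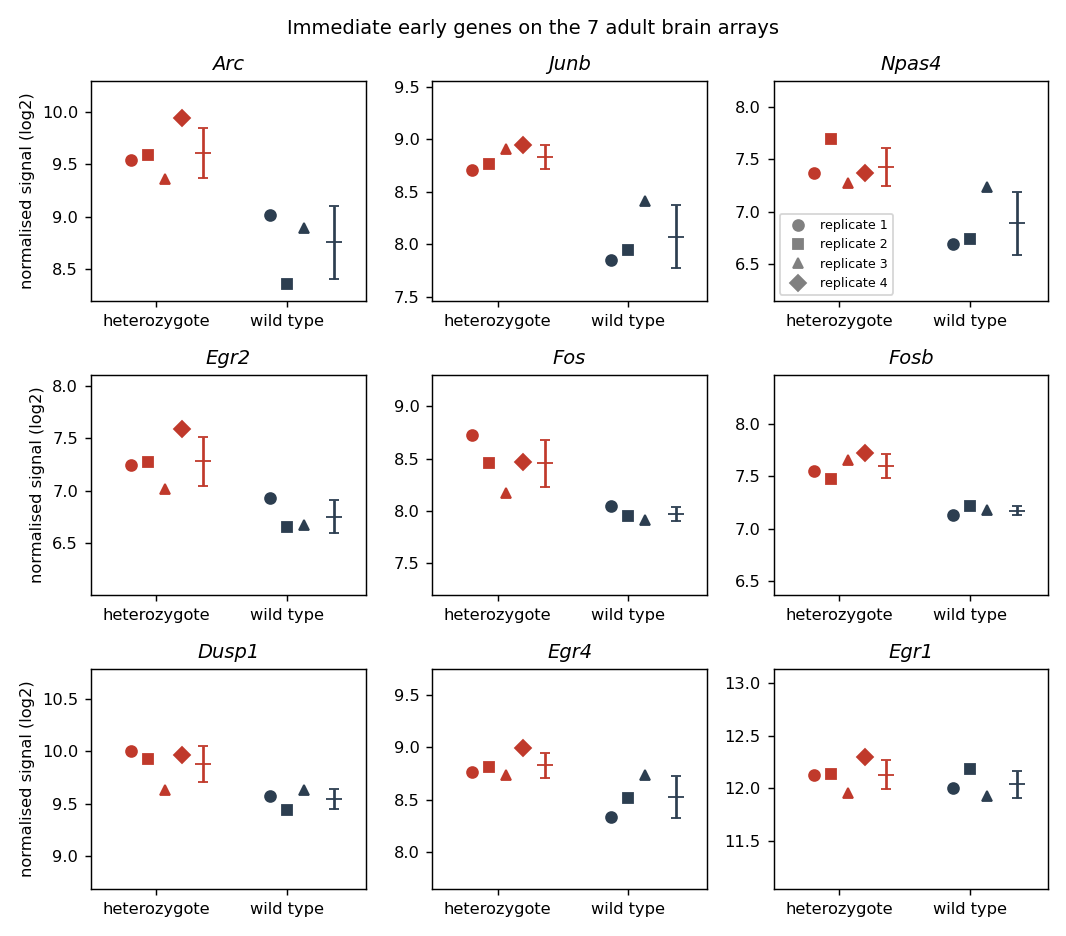
Normalised signal (log2) of the 9 measured immediate early genes on the adult arrays, heterozygotes (red, 4 mice) left of wild types (dark blue, 3 mice), with the mean and SD beside the points and each panel spanning the same log2 range. Arc, Junb and Fosb show clear space between the genotypes, Dusp1 almost touches, and Egr4 and Egr1 overlap.

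Arc, which encodes a synaptic protein that promotes the internalisation of AMPA receptors, had normalised signals (log2) of 9.55, 9.59, 9.36 and 9.94 in heterozygotes, against 9.02, 8.36 and 8.89 in wild types. Every heterozygote lay above every wild type, with 0.34 between the closest mice, and array 4 was the highest of all. The difference was 0.85 ± 0.17 (SE), a 1.81-fold higher signal on a scale that holds an added offset of 16 and so understates the change of dim probes. It was the largest among these genes.

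The AP-1 transcription factors pair a Fos with a Jun protein. Junb, of the Jun family, had signals of 8.71, 8.76, 8.91 and 8.95 in heterozygotes, against 7.85, 7.95 and 8.41 in wild types, a difference of 0.76 ± 0.14 (SE). The heterozygotes were close together (SD 0.11), and wild type 3 was the nearest to them. Fos had signals of 8.72, 8.46, 8.17 and 8.46 in heterozygotes, against 8.05, 7.96 and 7.91 in wild types, a difference of 0.48 ± 0.12. Here the wild types were close together (SD 0.07), heterozygote 1 was the highest and heterozygote 3 the lowest of its group, 0.12 above the nearest wild type. Fosb, whose stable splice product accumulates with repeated stimulation, had signals of 7.55, 7.47, 7.65 and 7.72 in heterozygotes, against 7.13, 7.21 and 7.17 in wild types, a difference of 0.43 ± 0.10. The genotypes were 0.26 apart at their closest.

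Npas4 encodes a transcription factor that responds to depolarisation in neurons and drives inhibitory synapse formation. Its detected probe had signals of 7.37, 7.69, 7.27 and 7.37 in heterozygotes, against 6.70, 6.74 and 7.24 in wild types, a difference of 0.53 ± 0.15 (SE). Wild type 3 came within 0.04 of the lowest heterozygote, and heterozygote 2 was the highest. The second Npas4 probe was detected on 0 of 7 adult arrays and gave no usable value; with the median over both probes the difference was 0.27.

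The Egr genes encode zinc finger transcription factors, of which Egr1 is active in the unstimulated cortex and Egr2 is also known for hindbrain segmentation and peripheral myelination. Egr2 had signals of 7.25, 7.27, 7.02 and 7.58 in heterozygotes, against 6.93, 6.65 and 6.67 in wild types, a difference of 0.53 ± 0.13 (SE). Heterozygote 4 stood highest and heterozygote 3 lowest of its group, 0.09 above the nearest wild type. Egr4 had signals of 8.77, 8.81, 8.73 and 8.996 in heterozygotes, against 8.34, 8.52 and 8.73 in wild types, a difference of 0.30 ± 0.11. The genotypes overlapped by a margin of -0.0019, between heterozygote 3 and wild type 3. Egr1 had signals of 12.13, 12.14, 11.96 and 12.30 in heterozygotes, against 12.003, 12.18 and 11.93 in wild types. Its difference of 0.09 ± 0.11 was smaller than its standard error, only heterozygote 4 exceeded every wild type, and the sign turned (-0.02) with arrays scaled to equal medians.

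Dusp1 encodes a phosphatase that inactivates MAP kinases and so limits the signal that induces it. It had signals of 10.01, 9.93, 9.63 and 9.96 in heterozygotes, against 9.57, 9.44 and 9.63 in wild types, a difference of 0.33 ± 0.11 (SE). Its groups were separated by 0.000952 only, between heterozygote 3 and wild type 3, so its place among the 7 genes without overlap rests on that margin. Nr4a1, an orphan nuclear receptor, was detected on 0 of 7 adult and 0 of 16 E12.5 arrays, and no level or difference is given for it.

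Across the 9 genes, heterozygote 4 gave the highest value in 6, heterozygote 1 in 2 and heterozygote 2 in 1. The lowest value was a wild type in every one, wild type 1 in 4 genes, wild type 2 in 3 and wild type 3 in 2. With each gene put on a z-score over the 7 arrays, the mean over the genes was 0.67, 0.66, 0.07 and 1.14 in heterozygotes and -0.95, -0.96 and -0.61 in wild types. Heterozygote 3 thus stood closest to the wild types. Before normalization the median signal per array was 136, 133, 125 and 119 in heterozygotes 1 to 4, against 143, 134 and 131 in wild types. Heterozygote 4, highest in most genes after normalization, was thus the dimmest adult array. The part of array brightness in these values was not tested. After the genotype means were taken out, the log2 signals of 26 of 36 gene pairs correlated positively over the 7 arrays. The median Pearson r was 0.27, with a range of -0.46 to 0.83. The 36 pairs share 9 genes, and the share of positive pairs among other genes was not computed, so the count is a description only. All these values come from the same RNA on the same array, so an array's own quality is shared by every pair.

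Markers of brain regions differed in the same arrays. The summed signal (linear scale) of the 4 measured olfactory bulb genes was 519, 459, 710 and 591 in heterozygotes, against 387, 274 and 192 in wild types, with no overlap. All 4 had positive differences, among them Doc2g, a gene of the bulb's projection neurons, at 1.23 ± 0.18 (SE), Cdhr1 at 1.31 ± 0.32 and Th, the dopamine synthesis enzyme of periglomerular cells, at 0.74 ± 0.16. A dimmer Doc2g probe was not detected in wild type 3. Its signals (log2) were 5.69, 5.42, 5.47 and 5.29 in heterozygotes, against 5.25, 5.04 and 4.76 in wild types. Sp8, the remaining bulb gene tested, overlapped, with heterozygote 1 at 5.26 and wild type 1 at 5.46. The other bulb markers with a probe, Eomes and Tbx21, did not pass the detection filter. The 7 measured cerebellar genes were all lower in heterozygotes, with a median of -0.40, including the granule cell genes Gabra6 at -0.92 ± 0.22 and Neurod1 at -0.48 ± 0.13, and Zic1 at -0.56 ± 0.20. Their summed signal was 9372, 9374, 8673 and 5034 in heterozygotes, against 9839, 9084 and 9223 in wild types. None of these genes passed an adjusted p of 0.05 in limma over all probes. With arrays scaled to equal medians every bulb gene stayed positive and every cerebellar gene negative. That scaling moved the median of all probes to -0.11, so nothing is read from the cerebellar genes keeping their direction.

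Heterozygote 4 had both the highest immediate early gene mean and the lowest cerebellar sum, and heterozygote 3 had the highest bulb sum and the lowest immediate early gene mean of its group. The part of these marker differences in the immediate early gene values was not tested. Leaving out a mouse can only narrow a group's range, so the count of genes without overlap could not fall. Without heterozygote 4, and likewise without any other single adult mouse, it was 7 or 8 of the 9 genes, and nothing is read from this. Summed signals of the forebrain excitatory neuron genes were 5896 to 7591 in heterozygotes and 5181 to 6104 in wild types, which overlapped. Those of every other list of region and cell type markers but the olfactory bulb also overlapped between the genotypes, with cerebellum, glia, blood and choroid plexus included. Signs leaned in some of these lists too, where 51.3% of all probes were positive. Positive differences were 0 of 5 for thalamus and habenula and 1 of 6 each for blood and choroid plexus. They were 4 of 5 for hypothalamus and 7 of 9 for embryonic neurons and progenitors.

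**Figure D2:**
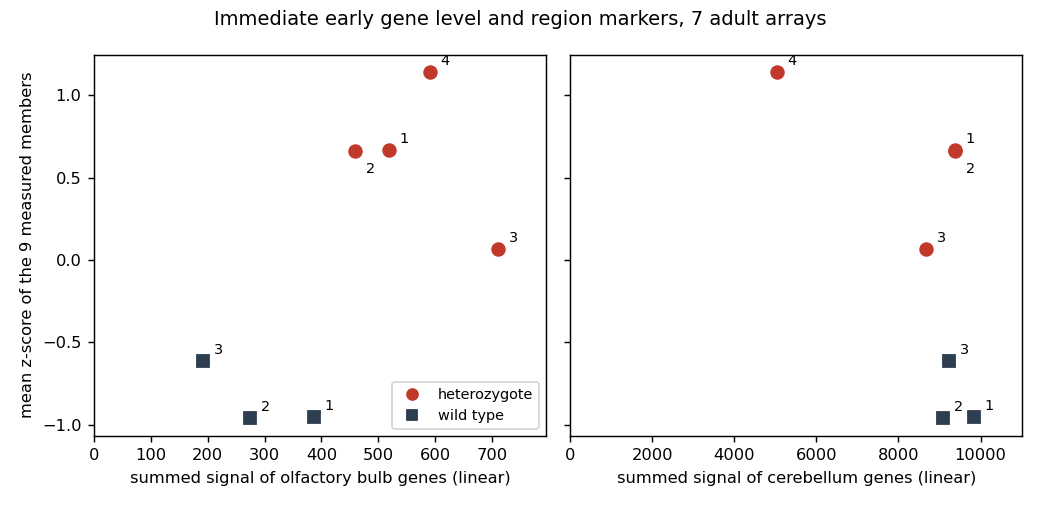
Mean z-score of the 9 measured immediate early genes against the summed linear signal of olfactory bulb genes (left) and of cerebellar genes (right), 1 point per adult array, numbered by replicate, with heterozygotes as red circles and wild types as dark blue squares. Heterozygotes lie above all wild types on the bulb axis (459 to 710 against 192 to 387), and heterozygote 4 stands apart at a cerebellar sum of 5034.

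Of 20 other transcription factors of the immediate early class listed, 12 were tested in adult brains, 11 had a positive difference, 0 passed an adjusted p of 0.05 in limma, and the median was 0.18, against 0.0053 for all probes. Their summed signal was 1666 to 1825 in heterozygotes and 1436 to 1530 in wild types, with no overlap. The nuclear protein gene Csrnp1 differed by 0.55 ± 0.15 (SE). It was the 1 of the 12 with every heterozygote above every wild type, which held for 5.43% of all probes. The AP-1 gene Jund at 0.23 ± 0.11 and the Krüppel-like factor gene Klf2 at 0.32 ± 0.17 overlapped. With arrays scaled to equal medians, 8 of the 12 were positive, with a median of 0.05 against -0.11 for all probes. Under that scaling 0 of the 12 had every heterozygote above every wild type, against 1.36% of all probes.

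Activity-induced effectors, such as growth factors and secreted peptides, were split. Of 28 listed, 21 were tested, 12 were positive and 0 passed the adjusted p of 0.05 in limma, with a median of 0.01. Inhba, the activin beta A subunit, differed by 0.46 ± 0.11 (SE) and Vgf, a secreted neuropeptide precursor, by 0.30 ± 0.10, both with no overlap, while the kinase gene Pim1 was lower by the same standard at -0.38 ± 0.09. These were 2 of 21 genes higher and 1 of 21 lower without overlap, against 5.43% and 5.02% of all probes. Bdnf, the neurotrophin whose transcription is driven by CREB and Npas4, had a difference of 0.01 ± 0.11 and was named after its value was seen. With arrays scaled to equal medians, 7 of the 21 were positive, with a median of -0.14 against -0.11 for all probes. Under that scaling 1 of the 21 was higher without overlap, against 1.36% of all probes.

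Genes upstream of the response were mixed as well, with 9 of 14 positive, 0 past the adjusted p of 0.05 in limma and a median of 0.11. The SRF coactivator Mrtfa differed by 0.27 ± 0.10 (SE) and the CREB coactivator Crtc1 by 0.27 ± 0.11, against -0.32 ± 0.12 for the transcription factor Mef2a. With arrays scaled to equal medians, 5 of the 14 were positive, with a median of -0.03. Both lists of stress-responsive genes had fewer positive than negative differences, where 51.3% of all probes were positive. Their summed signals overlapped between the genotypes, at 15168 to 16777 in heterozygotes against 14503 to 19988 in wild types for glucocorticoid-induced genes. For heat shock and unfolded protein genes they were 5631 to 6924 against 6055 to 6467. Glucocorticoid-induced genes were positive in 4 of 12, with a median of -0.08, and 0 passed, led by Mt2 at 0.26 ± 0.12, Sult1a1 at -0.28 ± 0.18 and Fkbp5 at -0.26 ± 0.17. Heat shock and unfolded protein genes were positive in 2 of 9, with a median of -0.08, and 0 passed, led by Hsp90aa1 at -0.29 ± 0.18, Hspa1a at -0.33 ± 0.22 and Hspa5 at -0.28 ± 0.18. With arrays scaled to equal medians, 3 of the 12 glucocorticoid-induced and 0 of the 9 heat shock and unfolded protein genes were positive. Both medians were then -0.25, against -0.11 for all probes.

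The genes whose adult signal ran most like the mean of the 9 immediate early genes were sought among 1009 genes detected on all 7 arrays with an SD of at least 0.25. The 10 closest were Rhpn1 (Pearson r 0.95 over 7 arrays), Tnfrsf25 (0.94), Tcirg1 (0.93), Slc44a2 (0.90), Inhba (0.90), Zbtb5 (0.89), Csrnp1 (0.87), Slc39a3 (0.87), Wdr83 (0.86) and Acot2 (0.86). Their heterozygote minus wild type differences were 0.36 for Acot2 to 0.63 for Tnfrsf25 on the log2 scale, a direction that the choice fixed, since the mean they were matched to separates the genotypes. Inhba and Csrnp1 belong to the listed activity-induced and immediate early genes. The ranking depended on single mice, since only 3 of the 10 names were kept without heterozygote 4 and 5 to 7 without any other.

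In E12.5 forebrain only some of these genes were measurable. Arc, Junb, Egr1 and Dusp1 were detected on 16 of 16 arrays and Egr2 on 6 of 16. Fos was detected on 4 of 16, none of them wild type, which was too few to pass the filter. Fosb, Egr4, Npas4 and Nr4a1 were detected on 0 of 16. The genes were picked for their adult levels, but with earlier results of these data known. It is thus not shown that the E12.5 comparisons of the 5 genes tested are independent of that choice.

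Between homozygous and wild type embryos 0 of 5 genes passed an adjusted p of 0.05 in limma, against 0.0488% of 14340 probes, and 0 of 5 had an unadjusted p under 0.05, against 11.8% of probes. Heterozygous and wild type embryos gave 0 of 5 as well (0% of probes), with 3.32% of probes at an unadjusted p under 0.05. Homozygous and heterozygous embryos also gave 0 of 5 (0.0697% of probes; 8.33% of probes at an unadjusted p under 0.05). No gene's groups were free of overlap in any of these comparisons, against 0.823%, 0.139% and 0.272% of probes, taking either direction.

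Arc, the gene with the largest adult difference, had values of 5.34 to 5.80 (median 5.74) in homozygotes, 5.33 to 6.08 (median 5.74) in heterozygotes and 5.70 to 6.10 (median 5.85) in wild types. Its heterozygote difference was -0.06 ± 0.12 (SE, adjusted p = 0.999 in limma) and its homozygote difference -0.07 ± 0.12 (adjusted p = 0.824). Junb had values of 5.69 to 6.25 (median 6.05) in homozygotes, 5.59 to 6.61 (median 6.07) in heterozygotes and 5.74 to 6.38 (median 5.78) in wild types. Its heterozygote difference was 0.14 ± 0.14 and its homozygote difference 0.12 ± 0.15 (adjusted p = 0.999 and 0.746 in limma). Both genes thus varied as much within a genotype as between them.

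Egr2 had values of 5.02, 5.20, 4.95, 4.99 and 5.41 in homozygotes, 4.99 to 5.70 (median 5.27) in heterozygotes and 5.06, 5.63, 5.08, 5.52 and 5.63 in wild types. The homozygote difference was -0.18 ± 0.11 (SE, adjusted p = 0.497 in limma) and lay at -0.10, -0.43 and -0.07 within litters 509, 542 and 551, the only litters with wild types. Egr1 differed by 0.09 ± 0.17 between homozygotes and wild types and by 0.15 ± 0.16 between heterozygotes and wild types. Within litters its homozygote difference turned sign, at 0.49, -0.36 and 0.21. Dusp1 differed by -0.11 ± 0.12 and -0.04 ± 0.12 in the same comparisons, with group means between 10.55 and 10.61.

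**Figure D3:**
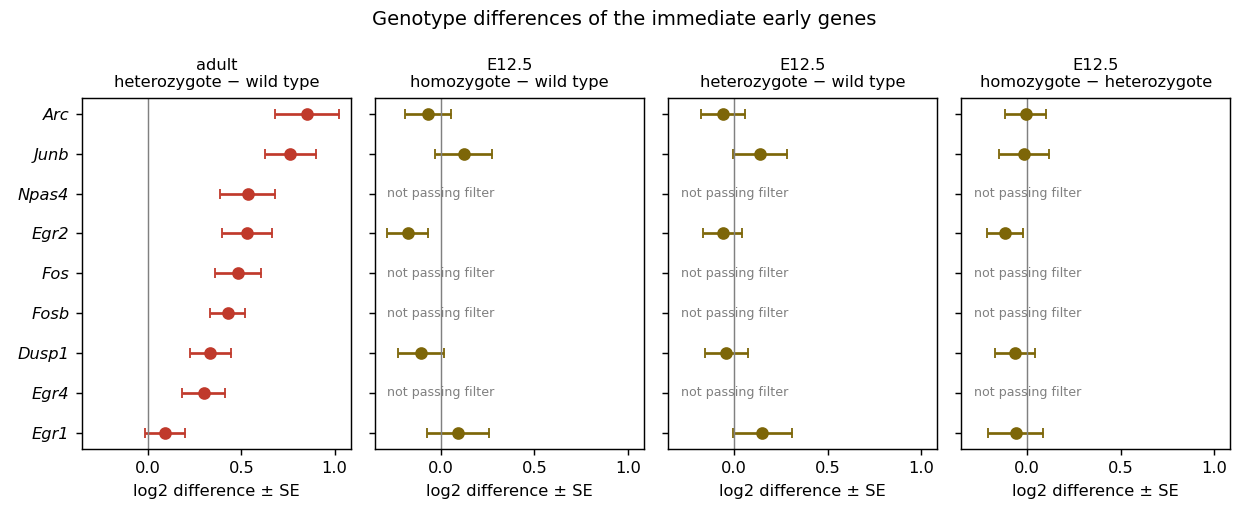
Genotype difference (log2) with its standard error for the 9 measured immediate early genes, in adult brain (left, 4 heterozygotes and 3 wild types) and in the comparisons among E12.5 homozygotes, heterozygotes and wild types. Adult differences lie between 0.09 and 0.85, the E12.5 differences between -0.18 and 0.15, and Npas4, Fos, Fosb and Egr4 did not pass the filter at E12.5.

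In a fit of both stages together, the heterozygote difference in adults minus that at E12.5 was 0.91 ± 0.21 (SE) for Arc, 0.75 ± 0.19 for Npas4, 0.66 ± 0.21 for Junb and 0.64 ± 0.17 for Egr2. It was 0.43 ± 0.19 for Fos, 0.37 ± 0.17 for Dusp1, 0.32 ± 0.14 for Egr4 and 0.32 ± 0.14 for Fosb. For Egr1 it was -0.05 ± 0.21. It uses the adult values on which the genes were picked, so it is a description, and 0 of 16352 probes passed an adjusted p of 0.05 in limma (0%), with 1108 (6.78%) at an unadjusted p under 0.05. For Npas4, Egr4 and Fosb the E12.5 side lies below detection. There Egr2 was detected in 2 of 6 heterozygotes and 3 of 5 wild types, and Fos in 2 of 6 and 0 of 5.

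Litter, read from the first part of the mouse number and not stated as such in the labels, moved 1 of the 5 genes past the adjusted p of 0.05 in limma, against 34% of all probes. That gene was Egr2, with means of 5.44 in litter 509, 5.50 in 542, 5.004 in 549 and 5.09 in 551 (adjusted p = 0.0105). It was detected on 3 of 3 and 3 of 5 arrays of litters 509 and 542 and on none of litters 549 and 551, so the lower values are bounds. Without background correction the adjusted p was 0.125, and with an offset of 50 it was 0.0628. The means of Arc were 5.80, 5.89, 5.42 and 5.84 and those of Junb 6.38, 6.02, 5.88 and 5.85 in litters 509, 542, 549 and 551 (adjusted p = 0.0973 and 0.0672 in limma). Embryo sex moved 0 of 5 genes (0.0697% of probes; 4.46% at an unadjusted p under 0.05). For a sex difference of the homozygote effect 0 of 5 genes passed (0% of probes), and 1 of 5, Egr1, had an unadjusted p under 0.05 (3.03% of probes), at -0.65 ± 0.29 in females minus males (adjusted p = 0.999 in limma).

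**Figure D4:**
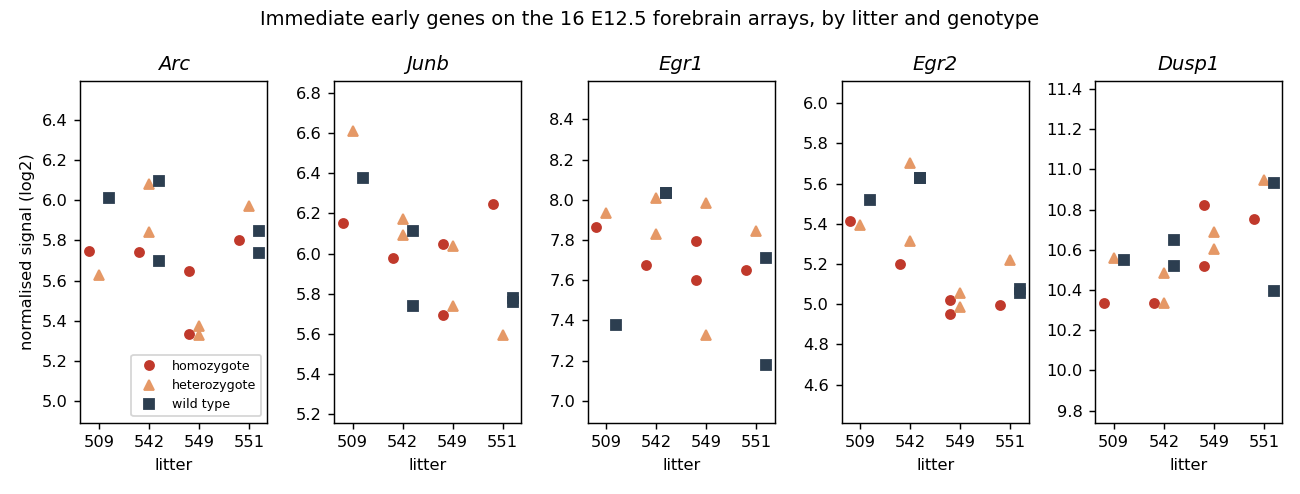
Normalised signal (log2) of the 5 immediate early genes tested at E12.5, 1 point per embryo, by litter, with homozygotes (red circles), heterozygotes (orange triangles) and wild types (dark blue squares) side by side; each panel spans the same log2 range. Egr2 is lower in litters 549 and 551 (means 5.004 and 5.09) than in 509 and 542 (5.44 and 5.50), and the genotypes overlap in every panel.

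Between the stages, wild type adult males and wild type E12.5 males were set side by side on a scale normalized over all 23 arrays. Stage, tissue (whole brain or forebrain) and array set cannot be told apart here. Of the 9 genes measured, 8 passed an adjusted p of 0.05 upward in limma, against 31.4% of 16352 probes, and all 9 had no overlap, against 31.7%. Fosb, Egr4 and Npas4 passed the filter through the adult arrays alone and so had to be higher there. All 9 had been picked on their adult levels, so nothing is read from these counts.

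Egr1 was at 12.97 ± 0.13 in adults and 7.29 ± 0.44 at E12.5 (SD, n = 3 each), a 51.0-fold higher signal. Arc was at 9.71 ± 0.36 in adults and 5.69 ± 0.15 at E12.5 (16.2-fold), and Junb at 8.99 ± 0.32 and 5.80 ± 0.34 (9.16-fold). Egr2 was at 7.54 ± 0.17 in adults and 5.28 ± 0.27 at E12.5 (4.79-fold), where it was detected on 2 of the 3 arrays. For genes detected on none of these E12.5 arrays, the fold was taken against the lowest detected signal, between 5.08 and 5.24 over the arrays, or the probe's own where higher. Egr4 was at least 19.2-fold higher in adults, Fos at least 12.8-fold, Fosb at least 6.97-fold and Npas4 at least 5.60-fold. These folds hold on the background-corrected scale only. Without background correction the fitted log2 differences were 4.75 for Egr1 (5.598 with it), 2.39 for Arc (4.06), 1.76 for Junb (3.18) and 0.92 for Egr2 (2.32). They were 2.61 for Egr4 (5.07), 1.90 for Fos (3.92), 1.39 for Fosb (3.39) and 1.13 for Npas4 (2.88).

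Dusp1 was at 10.50 ± 0.10 in adults and 10.21 ± 0.08 at E12.5, a 1.23-fold gap. It was the 1 gene of the 9 that did not pass the test of stage, and its fitted difference of 0.22 became -0.41 with arrays scaled to equal medians.

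**Figure D5:**
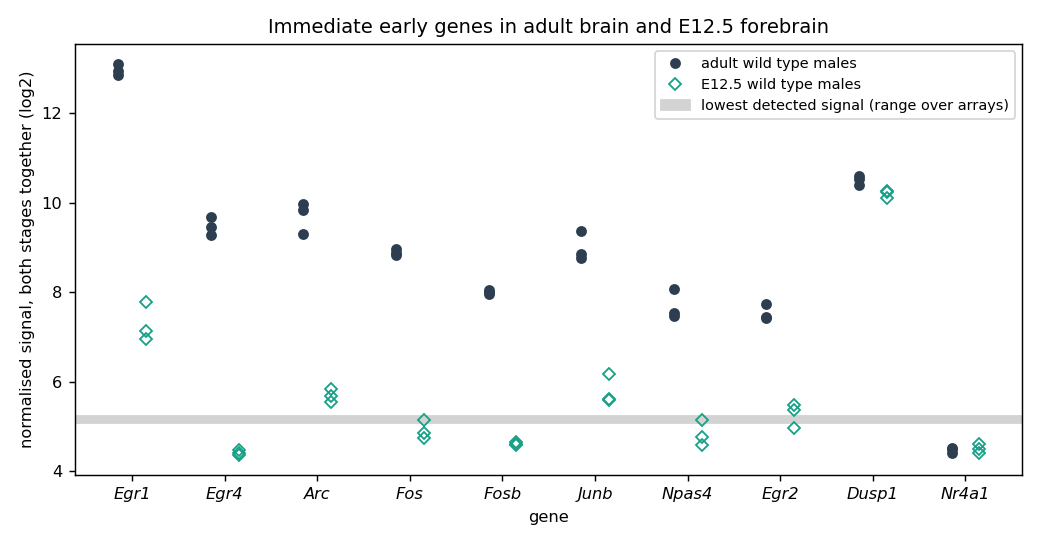
Signal (log2, both stages normalized together) of the 10 immediate early genes in adult (filled circles, 3 mice, left) and E12.5 (open diamonds, 3 mice, right) wild type males, with the range of the lowest detected signal over arrays in grey. Egr1 lies at 12.97 and 7.29, Dusp1 at 10.50 and 10.21, and Nr4a1 lies below the grey band at both stages.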

How the data were processed

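GenomeStudio 2011.1 is the software named in the submitters' processing notes. The authors deposited a table without normalization that gives, per the file headers, an intensity (mean probe signal, linear scale) and a detection p-value for each probe and array. A second deposited table holds the authors' processed intensity, with an unstated method and a scale that differs between the sets (column medians 16.2 to 16.3 in adults, 31.1 to 31.3 at E12.5); it served as an alternative. From the first table, signals were background-corrected and quantile normalized with neqc (limma 3.58.1, R 4.3.3, offset 16), for each stage apart and for all 23 arrays together. A probe entered a fit if its detection p was under 0.05 on 3 or more adult arrays (14266 probes), 5 or more E12.5 arrays (14340) or 3 or more of all arrays (16352).

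Two-sided tests came from lmFit and eBayes, and p-values were adjusted by Benjamini-Hochberg over every probe in the fit. Adult fits held genotype, E12.5 fits genotype, sex and litter, and joint fits stage by genotype and sex, with litter added for the heterozygote difference between stages. A gene with several probes was represented by the brighter one. The members and all gene lists were chosen with earlier results of these data known. Other genes were named by a rule, the 3 of smallest p in a list where none passed the threshold, except Bdnf and Sp8. Likeness was the Pearson r with the mean z-score. Promoters were read from RefSeq windows (GRCm38.p6), searched on both strands. The fits were run on simulated data with planted changes and noise drawn independently for each array. Such noise lacks what probes share on an array, so nothing is read from this about the values here. No pair of arrays held the same values (smallest SD of a pair's log2 difference 0.18 in adults, 0.22 at E12.5). The labels name no slide or batch, and each mouse gave 1 array, so the number of arrays limits the precision. Same-numbered adult mice deviated together at r = 0.12, -0.08 and 0.04 across probes, so their numbers were not taken as pairs. Alternatives covered background correction, scaling, filter, array weights, variance prior, model terms and each mouse left out.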

Additional observations from a re-analysis of the deposited data

Results flagged for a closer look

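In E12.5 forebrain the Egr1 signal of heterozygote male 1 was 7.33 on the log2 scale, and the nearest of the other 5 heterozygotes was at 7.83. This gap was 0.74 of the group's range. Of 24 groups of 4 to 6 mice, only this one passed the outlier limit for its size. Chance marks about 1 group in 20. Among adult heterozygotes the share was larger for Dusp1 (0.80, heterozygote 3) and Npas4 (0.77, heterozygote 2), but the limit is higher for 4 mice.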

How the results depend on the processing

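In the adult comparison, 0 of 9 genes passed the adjusted threshold under every alternative except the variance prior with trend and robust estimation, where 1 did (Junb, whose adult values served to choose it). The count of genes without overlap was 7 (5.43% of all probes). It was 2 with arrays scaled to equal medians (1.36%) and 8 in the authors' processed table (5.03%). It ran from 7 to 8 with a mouse left out, which cannot lower it. With 1 mouse left out, the names shared with the 10 genes most like the immediate early genes ran from 3 to 7. At E12.5, 0 of 5 genes passed in each genotype and sex comparison under every alternative run. Over all probes, homozygote against wild type gave 7 calls (1 to 10 over the alternatives) and homozygote against heterozygote 10 (2 to 14); the adult comparison gave 0 to 2, the heterozygote difference between stages 0 to 4 and the sexes 5 to 10.

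For litter at E12.5, 1 of 5 genes passed (1 to 2 with a mouse left out), with 2 under scaling to equal medians, 0 without background correction, with an offset of 50 or with probes detected on every array, which leaves out Egr2, and 4 with array weights. The stage count of 8 became 3 of 4 genes with probes detected on every array, which tests fewer genes. Other causes were not tested.

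Among the values given as descriptions, the adult Egr1 difference of 0.09 was -0.02 and the stage difference of Dusp1, 0.22, was -0.41 under median scaling, and the Egr1 heterozygote difference in adults minus E12.5, -0.05, ran up to 0.050 with a mouse left out. In the E12.5 comparisons the signs that turned belonged to differences that were not called. For homozygote minus heterozygote they were Junb at 0.0050 under median scaling and Arc at 0.0051 in the authors' table. For females minus males in the homozygote difference, Arc was at -0.19 without litter 549. With the replicate number as a block, heterozygote minus wild type was 0.049 for Dusp1, homozygote minus heterozygote 0.024 for Arc and the sex difference of the homozygote effect 0.058 for Egr2; the block changed no call of these genes, and the adult Arc and Junb differences were 0.74 and 0.72. With 1 mouse left out, homozygote minus wild type ran from -0.14 to 0.027 for Arc, -0.087 to 0.26 for Junb and -0.018 to 0.23 for Egr1. Heterozygote minus wild type ran from -0.13 to 0.027 for Arc, -0.11 to 0.0038 for Egr2 and -0.12 to 0.0092 for Dusp1. Homozygote minus heterozygote ran from -0.090 to 0.059 for Arc, -0.14 to 0.093 for Junb and -0.17 to 0.065 for Egr1. Female minus male ran from -0.15 to 0.041 for Junb and -0.010 to 0.080 for Egr2. The sex difference of the homozygote effect ran from -0.17 to 0.29 for Arc, -0.30 to 0.0067 for Egr2 and -0.30 to 0.11 for Dusp1. Signal over background limits the E12.5 values of Egr2 and Fos, and Nr4a1 has no usable value.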
